A study of Mus musculus with 4 samples.

Results

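The nuclear-encoded subunits of the mitochondrial respiratory chain and ATP synthase were followed through pooled profiles of single-nucleus RNA from mouse kidney. Members were taken by gene symbol: Nduf with a, b, c, s or v and a number for complex I, Sdha to Sdhd for complex II, Uqcr for complex III, Cox4 to Cox8 for complex IV and Atp5 for complex V. This gave 82 of the 24468 genes of a table of 17 clusters, with 36 members in complex I, 4 in complex II, 8 in complex III, 17 in complex IV and 17 in complex V. A second table, of proximal tubule nuclei, listed 79 of them among 21312 genes and did not list Cox6a2, Cox7b2 and Cox8b.

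The Cis9w group were male C57BL/6 mice given cisplatin, a DNA-crosslinking drug that injures the proximal tubule, at 8 mg/kg in each of 4 weekly injections, with kidneys taken at week 9 from the first (labelled RLDC). The CT9w group were labelled Control, with no dose or injections listed. Their strain and sex, like the ages of both groups, were not given in the sources used here. Each group had 2 samples of cortex with outer medulla, whose nuclei were captured on droplets with a 3' poly-dT kit. Both tables hold values pooled over nuclei, 1 column for each group and 1 for each cluster, so no test across samples could be run. Levels are given as averages, which are UMIs (counted RNA molecules) divided by the nuclei's summed size factors, and a pooled average cannot tell fewer nuclei of a kind from less RNA in each.

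The respiratory chain sits in the inner mitochondrial membrane. Complexes I and II pass electrons from NADH and succinate to ubiquinone, complex III passes them to cytochrome c and complex IV to oxygen, while complexes I, III and IV pump protons that drive ATP synthesis by complex V. Most subunits are encoded in the nucleus and made in the cytosol, and a small core of complexes I, III, IV and V is encoded by mitochondrial DNA, so complex II alone is wholly nuclear. The proximal tubule and the thick ascending limb reabsorb most filtered sodium and are rich in mitochondria. Nuclei hold unspliced and newly made RNA, so these values describe nuclear transcripts and not the proteins.

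The Cis9w pool held 8557662 UMIs and the CT9w pool 5123727, and the 17 clusters held between 254460 UMIs in mixed-2 and 7425098 in PT-S2/S3. Both proximal tubule pools carried the tubule's defining endocytic receptor Lrp2, at an average of 7.43 in Cis9w and 6.32 in CT9w. The 4 proximal tubule markers, Lrp2 among them, summed to 26.1 in Cis9w and 26.5 in CT9w, a ratio of 0.987 (0.976 to 0.998). By the authors' deposited table, 2 of the 4 had a log2 fold change below 0 and 2 above. The pools differed in other ways: the summed average of 4 markers of the last proximal segment, S3, was 1.70 in Cis9w and 7.07 in CT9w, and all 4 fell by the p-values of the authors' deposited table. The summed average of 4 injured-tubule markers was 0.487 in Cis9w and 0.129 in CT9w. Kap, an abundant proximal tubule transcript, and the red-cell globin genes, 5 genes used as tracers of free RNA, summed to 0.900 in Cis9w and 3.33 in CT9w. The part of these differences in the results for respiratory chain genes was not tested.

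In proximal tubule nuclei, no nuclear-encoded respiratory chain subunit at the floor was called higher or lower after cisplatin, and the whole set lay slightly lower. The summed average of the members was 7.82 in Cis9w and 8.31 in CT9w, a ratio of 0.941 (95% counting interval 0.922 to 0.960), or 0.280% of UMIs in Cis9w and 0.297% in CT9w. The floor was the median gene's mean of both averages, 0.0154, which 76 members reached. Of these 76, 0 passed a p under 0.05 by the authors' deposited table, where 3.29% of all 10656 genes at the floor passed, 1.51% higher and 1.78% lower. At that share few of 76 would pass, so 0 says little that is particular to the members. The smallest of their p-values by the authors' deposited table was 0.0629, for Atp5e, and 63 of the 76 had a p of 1. Their median log2 fold change by the authors' deposited table was -0.14, with 56 members below 0 and 20 above, beside 0.032 over all genes at the floor. Relative to cytosolic ribosomal protein genes, whose own summed average was 5.63 in Cis9w and 6.38 in CT9w, the ratio turned to 1.07.

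Complex I takes electrons from NADH and is the largest complex of the chain. Its 36 members summed to 2.92 in Cis9w and 3.11 in CT9w, a ratio of 0.939 (0.908 to 0.971), and their median log2 fold change by the authors' deposited table was -0.18. Ndufs4, an accessory subunit of the matrix arm whose loss in mice gives a model of Leigh syndrome, had the most UMIs, 1374 in Cis9w and 740 in CT9w, and averages of 0.449 in Cis9w and 0.404 in CT9w. Ndufs1, the large iron-sulphur subunit of the electron input arm, averaged 0.261 in Cis9w and 0.241 in CT9w. Both lay higher in Cis9w, with log2 fold changes by the authors' deposited table of 0.15 for Ndufs4 and 0.11 for Ndufs1 and a p of 1 for each. At the other end, Ndufc1, a small subunit of the membrane arm, averaged 0.0392 in Cis9w and 0.0639 in CT9w (log2 fold change -0.70, p = 0.417 by the authors' deposited table). Ndufa1, another membrane-arm subunit, averaged 0.0180 in Cis9w and 0.0267 in CT9w, on 55 UMIs in Cis9w and 49 in CT9w. Ndufb8 stood with Ndufs4 at the upper end, at 0.0827 in Cis9w and 0.0742 in CT9w. Neither end of the complex therefore held a called gene.

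Complex II oxidises succinate and is shared with the TCA cycle. Its summed average was 0.729 in Cis9w and 0.735 in CT9w, a ratio of 0.992 (0.926 to 1.06). The catalytic flavoprotein Sdha averaged 0.320 in Cis9w and 0.305 in CT9w. The iron-sulphur subunit Sdhb averaged 0.226 in Cis9w and 0.233 in CT9w. The membrane anchors went opposite ways: Sdhc averaged 0.149 in Cis9w and 0.176 in CT9w, while Sdhd averaged 0.0343 in Cis9w and 0.0224 in CT9w. Sdhd had the largest positive log2 fold change of the 76 members, 0.60 by the authors' deposited table, on 105 UMIs in Cis9w and 41 in CT9w, and it was not called (p = 0.882).

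Complex III passes electrons from ubiquinol to cytochrome c. Its 8 members had the lowest ratio of the 5 complexes, 0.893 (0.832 to 0.959), with summed averages of 0.630 in Cis9w and 0.706 in CT9w. That interval overlaps those of all the other complexes, so its place as lowest is not resolved. The core subunit Uqcrc2 averaged 0.199 in Cis9w and 0.192 in CT9w, and the hinge subunit Uqcrh averaged 0.110 in Cis9w and 0.116 in CT9w. The lower values lay among the small subunits. Uqcr11 averaged 0.0373 in Cis9w and 0.0644 in CT9w (log2 fold change -0.79, p = 0.277 by the authors' deposited table). Uqcr10 averaged 0.0546 in Cis9w and 0.0808 in CT9w, whereas Uqcrb, also small, averaged 0.0389 in Cis9w and 0.0404 in CT9w.

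Complex IV reduces oxygen. Its summed average was 1.39 in Cis9w and 1.49 in CT9w, a ratio of 0.929 (0.885 to 0.975), and its 11 members at the floor had a median log2 fold change of -0.14 by the authors' deposited table. Cox7c averaged 0.237 in Cis9w and 0.267 in CT9w. Cox4i1, the largest nuclear-encoded subunit, averaged 0.202 in Cis9w and 0.197 in CT9w, and Cox5a averaged 0.154 in Cis9w and 0.140 in CT9w. Cox5b, a peripheral subunit on the matrix side, had the lowest log2 fold change of the complex's members at the floor, with averages of 0.0461 in Cis9w and 0.0775 in CT9w (log2 fold change -0.75, p = 0.301 by the authors' deposited table). Cox7a2 averaged 0.0886 in Cis9w and 0.112 in CT9w. Ndufa4, which is named for complex I but is now assigned to complex IV, averaged 0.0833 in Cis9w and 0.107 in CT9w.

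Complex V makes ATP with a rotating central stalk. Its 17 members summed to 2.15 in Cis9w and 2.27 in CT9w, a ratio of 0.949 (0.913 to 0.987). The catalytic head's alpha subunit Atp5a1 averaged 0.420 in Cis9w and 0.362 in CT9w, and its beta subunit Atp5b 0.266 in Cis9w and 0.300 in CT9w, so alpha lay higher and beta lower in Cis9w. The stalk subunit gamma, Atp5c1, averaged 0.301 in Cis9w and 0.282 in CT9w. Its neighbour in the stalk, the epsilon subunit Atp5e, had the lowest log2 fold change of all 76 members, -0.99 by the authors' deposited table, with averages of 0.0373 in Cis9w and 0.0742 in CT9w on 114 UMIs in Cis9w and 136 in CT9w. Atp5k, subunit e of the membrane part, averaged 0.0304 in Cis9w and 0.0551 in CT9w (log2 fold change -0.86, p = 0.211 by the authors' deposited table). The ring subunit c is encoded by Atp5g1, Atp5g2 and Atp5g3, which yield the same mature protein. Atp5g2 averaged 0.0954 in Cis9w and 0.0884 in CT9w, Atp5g1 0.0575 in Cis9w and 0.0644 in CT9w, and Atp5g3 0.0677 in Cis9w and 0.0792 in CT9w.

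The members that lay lowest after cisplatin were short genes. Members span between 953 and 105382 bp with a median of 7245 bp, against 18134 bp over all genes of the cluster table. The 23 members at the floor that span under 5 kb had a median log2 fold change of -0.38 by the authors' deposited table, with 21 of 23 below 0. All 25 listed members of that class, Cox6b2 included, had a ratio of summed averages of 0.821 (0.785 to 0.859). The 40 listed members spanning 5 to 15 kb had a ratio of 0.942 (0.914 to 0.970). The 14 spanning 15 kb or more had a ratio of 1.02 (0.986 to 1.06), with 8 of 14 above 0. All 747 genes at the floor that span under 5 kb had a median of -0.018 by the authors' deposited table. Across the 76 members, log10 span and the log2 fold change by the authors' deposited table correlated with Pearson's r of 0.52 (Spearman's rho 0.48), beside 0.054 (rho 0.038) over 10654 genes at the floor. These are descriptions across genes that share the same pools. Ribosomal protein genes had a median of -0.19 by the authors' deposited table, and the mitochondrially encoded subunits had summed averages of 1.62 in Cis9w and 2.43 in CT9w, a ratio of 0.669 (0.643 to 0.697), with 11 of 11 at the floor below 0. The part of the RNA these lists track in the low values of short members was not tested.

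**Figure D1:**
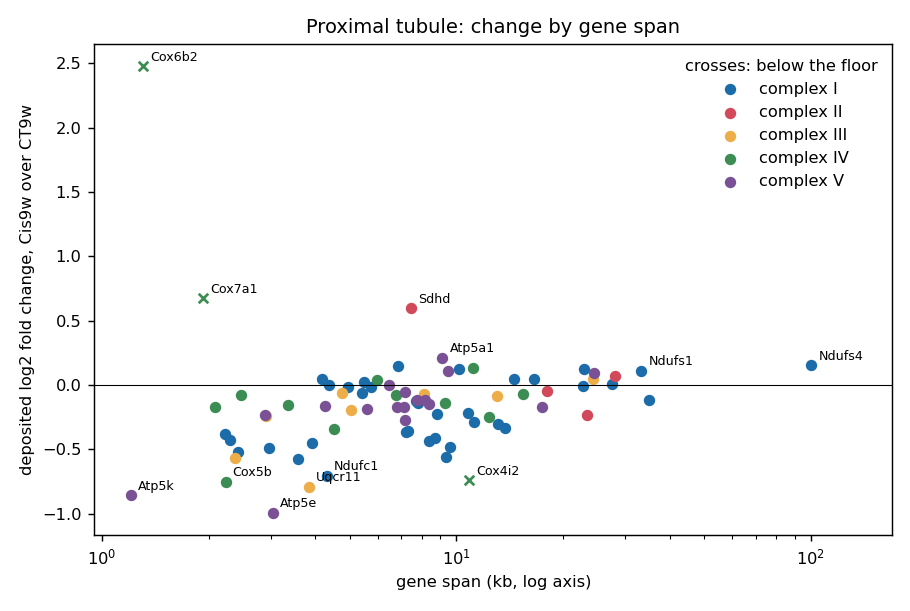
Log2 fold change by the authors' deposited table (Cis9w over CT9w, vertical axis) against gene span in kb (log axis) for the 79 members listed in the proximal tubule table, coloured by complex, with crosses for the 3 members below the floor. Short members such as Atp5e (-0.99) and Atp5k (-0.86) lie lowest, the members of 15 kb or more lie near 0, and Cox6b2 (2.48) stands apart.

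Genes at the floor that build, feed and regulate the chain were not called either, beside a share of 3.29% among all genes at the floor. For lists this short, 0 called is near that share and says nothing particular to them. Of 37 assembly factors at the floor 0 were called, and the summed average of all 46 listed was 4.84 in Cis9w and 4.83 in CT9w. Cox16, an assembly factor of complex IV, averaged 1.33 in Cis9w and 1.38 in CT9w. The 18 TCA cycle and pyruvate-entry genes, with 0 called, summed to 4.93 in Cis9w and 4.96 in CT9w. Among 17 regulators of mitochondrial biogenesis, again with 0 called, the orphan nuclear receptor gene Esrrg averaged 12.4 in Cis9w and 11.6 in CT9w, and the coactivator gene Ppargc1a 0.911 in Cis9w and 0.837 in CT9w. The 7 carriers and subunits outside the symbol rule and the 6 ADP, phosphate and outer membrane carriers at the floor also had 0 called. Slc25a5, an ADP/ATP carrier, averaged 0.0677 in Cis9w and 0.110 in CT9w (log2 fold change -0.70, p = 0.306 by the authors' deposited table). Of the mitochondrially encoded genes, mt-Nd3 was called lower by the authors' deposited table (log2 fold change -1.27, p = 0.00983), and mt-Nd6, below the floor, was called lower too.

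The only member called in the proximal tubule was Cox6b2, which lies below the floor. Cox6b2 is the testis isoform of a complex IV subunit on the intermembrane-space side, and Cox6b1 is its widely expressed counterpart. Cox6b2 had 64 UMIs in Cis9w and 6 in CT9w, averages of 0.0209 in Cis9w and 0.00328 in CT9w, and it rose by a log2 fold change of 2.48 by the authors' deposited table (p = 0.00147), where 0.995% of all 21312 genes were called higher. Cox6b1 averaged 0.0811 in Cis9w and 0.0890 in CT9w. Cox6b2 made up 20.5% of the pair's UMIs in Cis9w (95% Clopper-Pearson interval 16.2% to 25.4%) and 3.55% in CT9w (1.31% to 7.57%). The gene spans chr7:4751792-4753094 on the minus strand (GRCm38) and overlaps no other annotated gene. Its neighbour Kmt5c, 4278 bp away on the other strand, had 390 UMIs in Cis9w and 169 in CT9w and was not called. Fam71e2, 132 bp away on the same strand, had 0 UMIs in Cis9w and 1 in CT9w.

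Among the proximal tubule clusters, the share of Cox6b2 was low in 2 of the 3 that carry S3 in their name. It was 17.2% in PT-S1, 16.4% in PT-S2, 15.8% in PT-S2/S3 and 15.9% in PT-injury/repair, and it was 3.39% in PT-S3-2 (0.931% to 8.45%) and 2.19% in PT-S3-1 (0.454% to 6.27%). The low shares rest on 4 Cox6b2 UMIs in PT-S3-2 and 3 in PT-S3-1, whereas PT-S2/S3, with 42, was as high as PT-S1 and PT-S2. The summed S3 markers, 1.70 in Cis9w and 7.07 in CT9w, moved opposite to Cox6b2 between the pools, and their part in its rise was not tested. The highest share in any cluster was 42.1% in Mixed-1 (29.1% to 55.9%), where the average of Cox6b2 was 0.0537, against 0.0130 in PT-S1, a ratio of 4.14 (2.36 to 7.16). Cox6b2 was called higher in Mixed-1 by the authors' deposited table, as were 6.16% of all genes there. Mixed-1 also had the highest summed average of fibroblast and mural markers, 1.74, against 0.00667 in PT-S1.

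**Figure D2:**
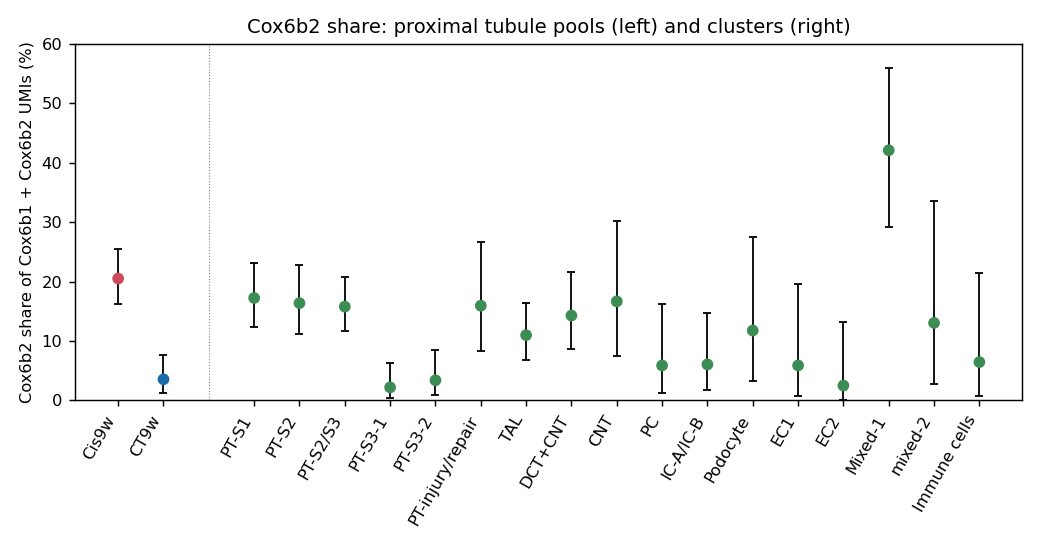
Share of Cox6b2 among Cox6b1 and Cox6b2 UMIs (percent, vertical axis) in the Cis9w and CT9w proximal tubule pools, left of the dotted line, and in the 17 clusters, right of it, with 95% Clopper-Pearson intervals that cover counting error only. Cis9w stands at 20.5% and CT9w at 3.55%, PT-S3-1 and PT-S3-2 are low among proximal tubule clusters, and Mixed-1 is high at 42.1%.

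Promoter sequence was set beside these values. Of the 82 members, 67 matched RefSeq promoter windows (GRCm38.p6, 250 bases before to 50 after the start), 72 windows in all. Both strands were searched for 4 motifs bound by factors known to act on such genes: GCGCA, any base and GCGC (NRF1), CCGGAAG (ETS factors such as GABP), TNAAGGTCA (oestrogen-related receptors) and ATGGCGG (YY1). The NRF1 letters were in 25% of member windows and 4.60% of all 32851 windows. The ETS letters were in 23.6% of member windows and 8.86% of all, the YY1 letters in 15.3% of member windows and 4.05% of all, and the receptor letters in 4.17% of member windows and 1.28% of all. At least 1 of the 4 was in 54.2% of member windows and 16.6% of all windows. The members are protein-coding genes, so the 21263 coding windows are a closer background. Among coding windows the shares were 6.38% for NRF1, 11.6% for ETS, 5.25% for YY1 and 21.2% for at least 1 of the 4. These lie above the shares of all windows, so the members' excess is smaller beside coding windows. The receptor letters went the other way and were rarer in coding windows than in all windows. Capitals mark the letters of the 4 motifs below, on either strand. Cox6b2 and Cox6b1 are shown as the isoforms that differ in the tubule, Atp5e as the member with the lowest change, and Sdha and Ndufs4 as long, highly expressed members whose windows hold matches. These 5 were chosen after the matches were seen, so they do not stand for the members at large.
Cox6b2, chr7:4753045-4753344, minus strand: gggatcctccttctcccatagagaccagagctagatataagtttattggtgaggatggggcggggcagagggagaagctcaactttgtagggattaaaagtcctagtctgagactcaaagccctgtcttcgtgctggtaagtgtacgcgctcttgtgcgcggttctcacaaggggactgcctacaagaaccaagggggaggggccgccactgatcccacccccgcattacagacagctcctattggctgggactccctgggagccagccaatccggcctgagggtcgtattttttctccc
Cox6b1, chr7:30626065-30626364, minus strand: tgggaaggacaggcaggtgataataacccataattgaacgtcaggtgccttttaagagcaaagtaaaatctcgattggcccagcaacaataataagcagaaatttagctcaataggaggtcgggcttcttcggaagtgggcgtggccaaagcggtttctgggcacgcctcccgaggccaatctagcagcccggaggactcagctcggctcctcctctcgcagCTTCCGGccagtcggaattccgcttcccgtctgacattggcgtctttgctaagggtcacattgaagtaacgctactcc
Atp5e, chr2:174464052-174464351, minus strand: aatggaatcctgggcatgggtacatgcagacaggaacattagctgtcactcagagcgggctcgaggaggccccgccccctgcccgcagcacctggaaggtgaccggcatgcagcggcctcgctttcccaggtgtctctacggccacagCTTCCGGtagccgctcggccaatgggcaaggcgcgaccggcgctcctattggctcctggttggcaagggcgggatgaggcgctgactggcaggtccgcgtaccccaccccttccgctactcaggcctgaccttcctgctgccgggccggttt
Sdha, chr13:74350191-74350490, minus strand: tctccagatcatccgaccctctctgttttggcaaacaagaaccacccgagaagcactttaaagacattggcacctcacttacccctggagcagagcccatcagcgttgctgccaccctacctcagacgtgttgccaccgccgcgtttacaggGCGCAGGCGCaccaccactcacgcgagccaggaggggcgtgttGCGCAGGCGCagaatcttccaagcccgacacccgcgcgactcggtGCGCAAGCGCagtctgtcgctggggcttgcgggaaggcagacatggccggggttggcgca
Ndufs4, chr13:114388045-114388344, minus strand: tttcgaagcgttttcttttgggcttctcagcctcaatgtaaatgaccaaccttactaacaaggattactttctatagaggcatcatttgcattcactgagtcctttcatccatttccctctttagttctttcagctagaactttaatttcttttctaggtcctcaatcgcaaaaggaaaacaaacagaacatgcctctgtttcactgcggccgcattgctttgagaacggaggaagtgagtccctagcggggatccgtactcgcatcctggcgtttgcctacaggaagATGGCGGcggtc
The window of Sdha holds the NRF1 letters at 3 places, Cox6b1 and Atp5e hold the ETS letters in reverse complement, Ndufs4 holds the YY1 letters at its 3' end, and Cox6b2 holds none of the 4. A match is a description of the letters and not a bound site.

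Over the 17 clusters, the members' summed average ran from 4.95 in PT-injury/repair to 12.9 in PT-S3-1. The clusters pool nuclei of both groups, and their labels went with their defining markers: the summed thick limb markers were 44.8 in TAL, distal convoluted markers 36.2 in DCT+CNT, connecting tubule markers 70.1 in CNT, principal cell markers 2.58 in PC and intercalated markers 11.5 in IC-A/IC-B. Endothelial markers summed to 12.1 in EC1 and 16.2 in EC2, podocyte markers to 5.98 in podocytes and immune markers to 4.91 in immune cells. Each of these sums was the highest for its list over the clusters, EC1 apart, which came after EC2. Each cluster column adds up to 2008, so a sum is a share of the cluster's UMIs and not an amount of RNA. The clusters with the highest members' sums were PT-S3-1 (12.9, interval 12.6 to 13.2) and mixed-2 (11.9, 11.3 to 12.5). The next were EC1 at 8.96, the thick ascending limb (TAL) at 8.92 and immune cells at 8.73, whose counting intervals overlap. DCT+CNT stood at 8.35, intercalated cells at 7.81 and CNT at 7.60, the last pair with overlapping intervals. PC at 6.86, EC2 at 6.76 and podocytes at 6.58 followed, also with overlapping intervals. Mixed-1 stood at 6.31, PT-S1 at 6.07, PT-S2/S3 at 5.83, PT-S2 at 5.82 and PT-S3-2 at 5.67. The ratio of Mixed-1 to PT-S1 was 1.04 (0.998 to 1.08), so that step is not resolved. Intervals of ratios to PT-S1 also overlapped among PT-S2/S3, PT-S2 and PT-S3-2, and between Mixed-1 and both EC2 and podocytes. The same held for DCT+CNT (1.34 to 1.41) and immune cells (1.36 to 1.51). On this scale every proximal tubule cluster except PT-S3-1 lay below every cluster named for another cell type, an order that 2 other scales did not keep. Relative to ribosomal protein genes, PT-S2, PT-S1 and PT-S2/S3 ranked 5, 6 and 7 of the 17 clusters, above PC at 8, podocytes at 12, immune cells at 15, EC2 at 16 and EC1 at 17. Over members of 15 kb or more, PT-S1 ranked 9, above EC1 at 10, podocytes at 15 and EC2 at 16.

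**Figure D3:**
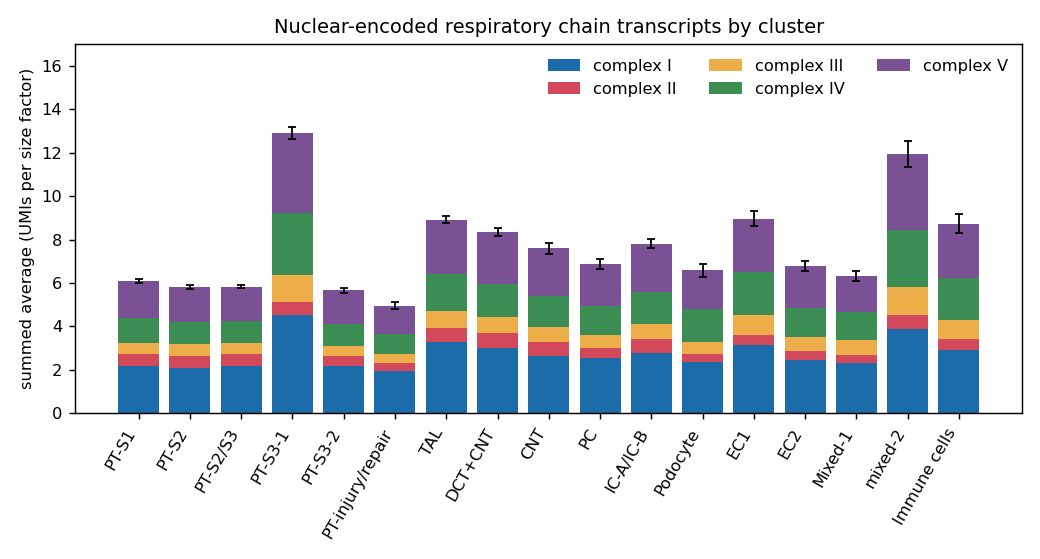
Summed average of the 82 members (UMIs per size factor, vertical axis) in each of the 17 clusters, stacked by complex, with exact Poisson 95% intervals of the total. PT-S3-1 (12.9) and mixed-2 (11.9) are highest, PT-injury/repair (4.95) is lowest, and complex I and then complex V make up most of each bar.

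In the thick ascending limb nearly every member had a higher average than in PT-S1. The members' sum in TAL was 8.92, against 6.07 in PT-S1, a ratio of 1.47 (1.43 to 1.50). Of the 77 members at the cluster floor of 0.0107, 76 were higher in TAL, where 62.1% of all genes at that floor were. The ratios of the complexes were 1.51 for complex I, 1.16 for complex II, 1.47 for complex III, 1.54 for complex IV and 1.47 for complex V. Ndufs1 averaged 0.311 in TAL, against 0.183 in PT-S1, and Ndufv2, an iron-sulphur subunit of complex I, 0.232 in TAL, against 0.135 in PT-S1. The ratio was close in both span classes, 1.46 for members under 5 kb and 1.48 for members of 15 kb or more. Relative to ribosomal protein genes, which summed to 5.91 in TAL, against 4.40 in PT-S1, it was 1.09. TCA cycle genes were close in level, 4.16 in TAL, against 3.97 in PT-S1 (ratio 1.05, 1.02 to 1.08).

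The injury and repair cluster had the lowest sum, a place it lost relative to ribosomal protein genes, where it ranked 11 of 17 and EC1 was lowest. Its 4.95, against 6.07 in PT-S1, is a ratio of 0.815 (0.788 to 0.844), and it held the lowest value of 27 of the 77 members. The share of all genes with their lowest value there is not given here. Only 18 of the 77 were higher there than in PT-S1, where 63.3% of all genes were. Complex II was the furthest below, with a ratio of 0.648 (0.569 to 0.735), followed by complex V at 0.758 (0.708 to 0.810), complex III at 0.820, complex IV at 0.839 and complex I at 0.889. The intervals of complexes II and V overlap, so the lowest place is not resolved. Complex II also lay below PT-S1 in podocytes (0.632), Mixed-1 (0.673) and EC2 (0.731), but not in TAL (1.16) or DCT+CNT (1.27). Sdhb averaged 0.0769 in PT-injury/repair, against 0.170 in PT-S1, a ratio of 0.451 (0.341 to 0.588). Atp5a1 averaged 0.148 in PT-injury/repair, against 0.290 in PT-S1, a ratio of 0.509 (0.417 to 0.617). Ndufs4 did not share this, at 0.342 in PT-injury/repair, against 0.326 in PT-S1. TCA cycle genes lay lower still, 2.24 in PT-injury/repair, against 3.97 in PT-S1 (ratio 0.565, 0.538 to 0.594), with 17 of 18 lower. Ribosomal protein genes went the other way, 5.21 in PT-injury/repair, against 4.40 in PT-S1, so that relative to them the ratio for respiratory chain members was 0.688. The authors' deposited table called 0 members lower in this cluster and 0.621% of all genes. The cluster also differed in identity: proximal tubule markers summed to 2.81 in PT-injury/repair, against 21.1 in PT-S1, and injured-tubule markers to 1.62 in PT-injury/repair, against 0.249 in PT-S1. The part of this difference in the members' values was not tested.

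PT-S3-1 and mixed-2 stood apart from the other clusters. PT-S3-1 held the highest value of 40 of the 77 members and mixed-2 that of 21. The share of all genes with their highest value in each cluster is not given here, and mixed-2 had the fewest UMIs, 254460. Ribosomal protein genes were also highest there, at 13.5 in PT-S3-1 and 13.2 in mixed-2, as were Kap with the globins, at 8.37 in PT-S3-1 and 6.94 in mixed-2. Mitochondrially encoded genes were highest there too, at 5.05 in PT-S3-1 and 4.74 in mixed-2, with EC1 close behind. Their ratio to PT-S1 was 2.92 (2.79 to 3.05) in PT-S3-1, 2.74 (2.51 to 2.98) in mixed-2 and 2.70 (2.54 to 2.87) in EC1. For the respiratory chain members, the ratio of PT-S3-1 to PT-injury/repair was 2.60, and it was 1.00 relative to ribosomal protein genes. By gene span it was 3.49 for members under 5 kb and 1.59 for members of 15 kb or more. The part of what these lists track in the members' sums was not tested. Without the pair, the highest value fell in EC1 for 29 members, in immune cells for 18, in TAL for 14 and in DCT+CNT for 7, and the highest sum was 1.81 times the lowest. EC1 held 616406 UMIs and immune cells 363369, against 2908973 in TAL, so their single averages carry wider counting intervals.

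Short and long members ordered the clusters differently. Members under 5 kb were highest in PT-S3-1 (3.80), mixed-2 (3.28), EC1 (2.48) and immune cells (2.31). Members of 15 kb or more were highest in TAL (2.92), DCT+CNT (2.90), intercalated cells (2.75) and CNT (2.69), all past the proximal tubule along the nephron, and lowest in PT-injury/repair (1.54). Across the 17 clusters, the log2 sum of short members and that of ribosomal protein genes correlated with Pearson's r of 0.94 (Spearman's rho 0.88), and with r of 0.90 (rho 0.83) without PT-S3-1 and mixed-2. For long members the same r was 0.013 (rho -0.0025), or -0.26 (rho -0.19) without the pair. The clusters come from the same libraries, so these are descriptions with no test.

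**Figure D4:**
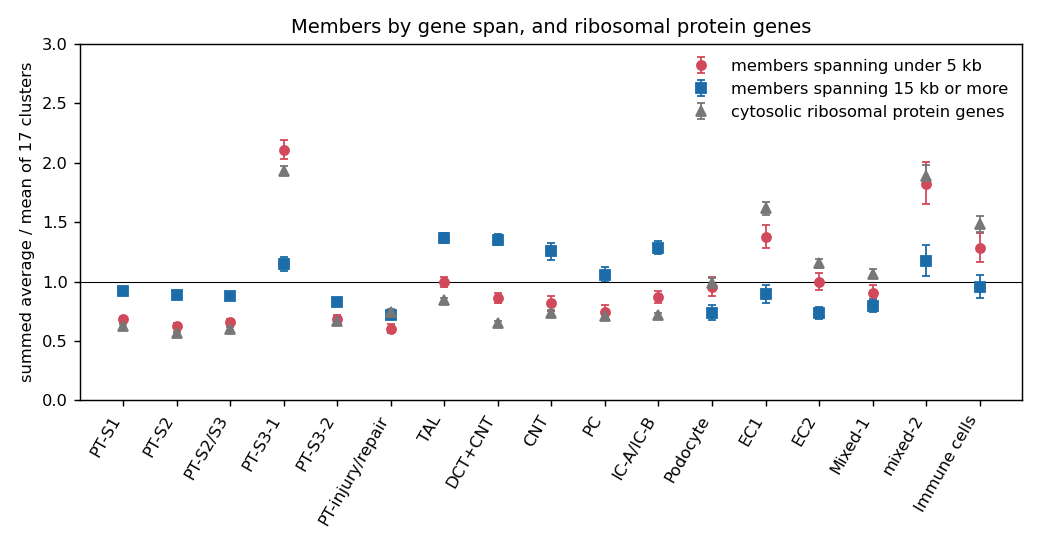
Summed averages of members spanning under 5 kb (circles), members spanning 15 kb or more (squares) and cytosolic ribosomal protein genes (triangles) in each cluster, each divided by its mean over the 17 clusters, with exact Poisson 95% intervals. Circles and triangles move together and peak in PT-S3-1 and mixed-2, while squares peak in TAL, DCT+CNT, intercalated cells and CNT.

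Single members departed from these orders. Sdhd had its highest value in intercalated cells, 0.0556, and its lowest in EC2, 0.00646, on 3 UMIs. Sdha was highest in CNT, at 0.351, and Sdhb was higher in the 4 proximal clusters PT-S1, PT-S2, PT-S2/S3 and PT-S3-2 (0.164 to 0.171) than in EC1 (0.0977), EC2 (0.0754), podocytes (0.0749) and Mixed-1 (0.0604). Atp5c1 was highest in intercalated cells, at 0.394, and Ndufs4 in DCT+CNT, at 0.506, TAL, at 0.502, and intercalated cells, at 0.502. The members whose highest value was furthest above their median cluster were Atp5k, Cox6b2, Ndufa1, Ndufa2, Atp5e, Uqcr11, Uqcrq, Ndufa3, Ndufa11 and Atp5mpl. Of these 10, Cox6b2 peaked in Mixed-1 and the others in PT-S3-1 or mixed-2. Atp5k, for example, averaged 0.188 in PT-S3-1 and 0.0230 in PT-S2.

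**Figure D5:**
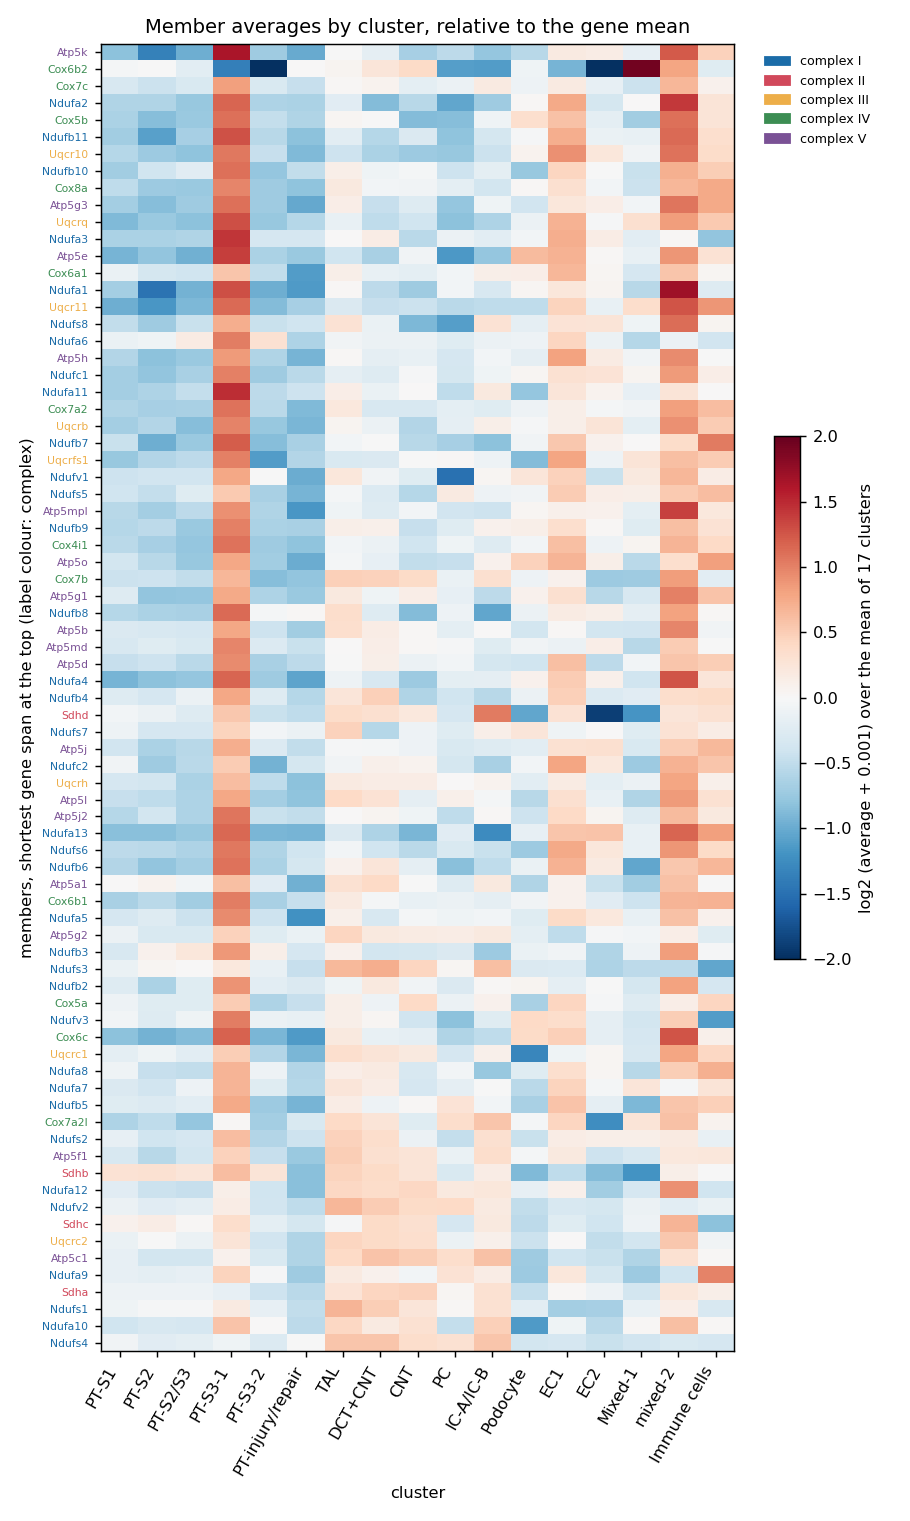
Averages of the 77 members at the floor of the cluster table in the 17 clusters, as log2 of the average plus 0.001 over its mean across clusters (red above, blue below), with the shortest gene at the top and label colours for the complex. The red columns of PT-S3-1 and mixed-2 fade towards the long genes at the bottom, where TAL, DCT+CNT, CNT and intercalated cells turn red, and PT-injury/repair is blue over most of its length.

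The deposited calls against all other nuclei were few, 2 higher and 16 lower over the 17 clusters, where 3.02% of all gene and cluster pairs were called higher and 3.1% lower. At a p under 0.05 and a log2 fold change of at most -1 by the authors' deposited table, 9 of 82 members were lower in PT-S2/S3 (beside 12.4% of all genes), among them Ndufa4, Uqcr11, Uqcrb, Atp5e and Atp5k. PT-S1 had 3 (Ndufa4, Uqcr11 and Atp5e), beside 9.77% of all genes, and PT-S2 had 3 (Ndufa1, Uqcr11 and Atp5k), beside 7.63%. PT-S3-2 had 1, Cox6b2, beside 7.50%. These shares are near or below the background and say nothing particular to the members. A log2 fold change of at least 1 with such a p was met by the authors' deposited table for Cox6b2 in Mixed-1 and for Cox7b2 in podocytes, the last on 3 UMIs, where 1.74% of all genes were called higher.

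Tissue-restricted isoforms of complex IV were rare, Cox6b2 apart. Over the 17 clusters Cox4i1 had 3237 UMIs and Cox4i2, an isoform best known from lung, had 14. Cox6a1 had 1532 UMIs and the muscle isoform Cox6a2 had 2. Cox7a2 had 1619 UMIs, Cox7a2l, which helps join complexes III and IV into supercomplexes, had 867, and the muscle isoform Cox7a1 had 38. Cox7b had 2443 UMIs and the testis isoform Cox7b2 had 4, while Cox8a had 2448 and the muscle isoform Cox8b had 1. In the proximal tubule pools Cox4i2 had 1 UMI in Cis9w and 1 in CT9w, and Cox7a1 had 7 in Cis9w and 2 in CT9w. The counts of Cox4i2, Cox6a2, Cox7a1, Cox7b2 and Cox8b are too few to order clusters. The share of Cox7a2l among the UMIs of Cox7a1, Cox7a2 and Cox7a2l was 19.5% in PT-S3-1 (14.2% to 25.7%) and 17.5% in EC2 (9.05% to 29.1%). It was 46.6% in intercalated cells (37.8% to 55.5%) and 42.9% in DCT+CNT (35.6% to 50.4%), so these intervals lay above those of PT-S3-1 and EC2. The c-subunit genes were used more evenly, with 1020 UMIs for Atp5g1, 1358 for Atp5g2 and 1361 for Atp5g3. Per kb of merged exon, Cox8a had the highest mean cluster average, 0.274, followed by Cox7c at 0.206, although a 3' kit counts molecules and not length.

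Members varied together across clusters. Each member's log2 average correlated with the log2 sum of the other members with a median Pearson's r of 0.77 over 17 clusters, and 0.67 without PT-S3-1 and mixed-2, on 77 members. The same median for other gene sets is not given here, so this is not shown to be particular to the members. By complex the median over 17 clusters was 0.89 for complex V, 0.87 for complex IV, 0.79 for complex III, 0.75 for complex I and 0.47 for complex II. Of the 4 complex II genes, 3 span 15 kb or more, and the shorter Sdhd had an r of 0.54. In complex I, 3 long members lay below its median, with r of 0.090 for Ndufs4, 0.34 for Ndufs1 and 0.39 for Ndufv2. Others lay below it as well, among them Ndufs3 (0.13), Ndufv3 (0.46) and Ndufa9 (0.49). The part of gene span in these values was not tested. Without PT-S3-1 and mixed-2 the median for complex II was 0.36, with 0.74 for Sdha and 0.017 for Sdhc. Among genes that are not members, those most like the members' sum over the 17 clusters were mt-Nd3 (r of 0.90), Slc25a5 (0.90), Rnasek (0.89), mt-Co2 (0.88) and mt-Atp6 (0.87). All 5 had their highest average in PT-S3-1 or mixed-2.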

How the data were processed

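Single-nucleus RNA was profiled in 2 Cis9w and 2 CT9w samples. The submitters' processing notes name Cell Ranger 5.0.1 and mm10. Filters on nuclei, the clustering, the statistical test, its adjustment, and which libraries entered the proximal tubule table were not given in the sources used here. Per the file headers, the authors deposited for each gene its average, log2 fold change and p-value. The average is a signal in UMIs per size factor, which the authors scaled before deposit, with columns that each add up to 2797 (proximal tubule) or 2008 (clusters). The deposited log2 fold change sets Cis9w over CT9w, or a cluster over all other nuclei, and of the deposited p-values in the proximal tubule 82.4% are 1.

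UMI counts were recovered from the averages: within 0.1 UMI, at least 99.9948% of the values in each column of the deposited tables were whole. With 1 pool per group, no count test was run and no genes were called from these counts. Intervals are exact 95% Poisson for sums, and Clopper-Pearson for ratios and shares, and cover counting error only. A called gene had a deposited p under 0.05, with a log2 fold change of at least 1 in size for clusters. Gene spans came from GENCODE M21 on GRCm38, the assembly of mm10. Named genes were those called, the 2 highest and 2 lowest by fold change and the 2 highest by level in each complex, the 10 most uneven across clusters, all isoform groups, and the 5 genes most alike. Others are named for a result that turns on them and were chosen after their values were seen. Members and lists were chosen with earlier results of these data known, and span classes after seeing the data. Computation used Python 3.11.15, pandas 2.3.3 and SciPy 1.17.1, and was tested on simulated data. The alternatives tried are given at the end.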

Additional observations from a re-analysis of the deposited data

How the results depend on the processing

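No paired analysis was possible because the tables hold 1 pooled column per group and no column of a sample. In the proximal tubule, dropping the floor took the members called to 1 (Cox6b2). The median log2 fold change of -0.14 became -0.38 for members under 5 kb and 0.028 for members of 15 kb or more. The ratio of 0.941 became 0.821 for the short class and 1.02 for the long class, and 1.07 relative to ribosomal protein genes. The mean for complex V was -0.19. Cluster calls numbered 2 higher and 16 lower. At a p under 0.01 they were 1 higher and 4 lower, and at any size of change 26 were lower, 19 of them in PT-S2/S3. The shares of all genes at these other settings are not given here, so these counts say nothing particular to the members. PT-S3-1 over PT-injury/repair, 2.60, was 2.73 without Ndufs4 (the member of highest average, which alone among members at the floor spans 50 kb or more), 1.00 relative to ribosomal protein genes, and 3.49 for short and 1.59 for long members. TAL over PT-S1 was 1.09 relative to ribosomal protein genes. PT-injury/repair over PT-S1, 0.815, was 0.854 by the median over members, 0.688 relative to ribosomal protein genes, and 0.886 for short and 0.781 for long members. Highest over lowest was 1.81 without PT-S3-1 and mixed-2. The place of PT-injury/repair as lowest of 17 became 11 relative to ribosomal protein genes, and the order of proximal tubule against other clusters turned there and over long members. Span classes and the omission of that pair were chosen after seeing the data. The cause of these shifts was not tested. Of 119 single-cluster values under 7 settings, 55 stayed within the counting interval. Depth limits isoforms with few UMIs, and the spread between animals is unknown.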
